A study of Mus musculus with 12 samples.

Results

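The genes described here make sterols and fatty acids or control that synthesis, and they were measured in LSK cells of aged mice with and without the NIPA gene (Zc3hc1), 3 h after 4 Gy of ionizing radiation or without it. The rule picks them by name from textbook pathways and uses no measured value, but the set was drawn up with earlier results of these data known. Of 32 listed genes, 29 had a probe set with that gene's symbol alone, out of 22180 genes with such a probe set. All 29 were brighter than the limit for testing, which was 5.29 on the log2 scale in at least 3 arrays. Acat2, the thiolase that makes acetoacetyl-CoA, had no named probe set. Idi1, which isomerizes the activated isoprene unit, and the desaturase Scd2 shared their probe sets with other symbols, so no values are given for them. The 29 genes are 5 of the mevalonate pathway, 11 that lead onward to cholesterol, 6 of sterol-responsive control and sterol transport, and 7 of fatty acid synthesis and desaturation.

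LSK cells are lineage-negative bone marrow cells with SCA1 and cKIT on their surface, a fraction that holds stem and early progenitor cells. The mice were older than 20 months and had been backcrossed to C57BL/6. Each sample merged LSK cells of 3 mice, and all samples were cultured in medium with fetal calf serum, IL-3, IL-6 and SCF. The 4 groups of 3 arrays are irradiated NIPA KO, untreated NIPA KO, irradiated wild type (WT) and untreated WT. The labels do not say which part of the gene the knockout lacks, nor whether irradiated and untreated samples of a genotype came from the same pools, so p-values measure the spread between these samples.

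Cells build cholesterol from acetyl-CoA. The mevalonate pathway makes farnesyl diphosphate, squalene synthase joins this to squalene, and squalene is oxidised, closed to lanosterol and trimmed to cholesterol in the endoplasmic reticulum. Transcription of these enzymes is driven by the membrane-bound factors SREBP1 and SREBP2. When membranes are poor in sterol, SCAP escorts an SREBP to the Golgi, where proteases release its active part, and when sterol is plentiful INSIG proteins hold SCAP back. SREBP2 is known mainly for sterol genes and SREBP1 mainly for fatty acid genes. SREBPs bind their promoters together with other factors, among them NF-Y, which recognises the letters CCAAT.

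The promoters of members that rose after irradiation are shown because the letters that SREBPs and NF-Y are known to bind can be read in them directly. RefSeq's promoter table (GRCm38.p6) held 23 of the 29 members. It held 6 of the 8 that rose and not Fdft1 or Sqle. Each sequence is the 250 bases before the RefSeq gene start, read along the gene's own strand. Capitals mark matches to 3 motifs, each searched on both strands. The sterol regulatory element core is TCACNCCAC, where N is any base. The NF-Y box is CCAAT, and it appears in these lines as its reverse complement where it lies on the opposite strand. The E box is CACGTG and reads alike on both strands. No matches overlap in these 6 windows.
Hmgcs1, chr13:119690101-119690350, plus strand: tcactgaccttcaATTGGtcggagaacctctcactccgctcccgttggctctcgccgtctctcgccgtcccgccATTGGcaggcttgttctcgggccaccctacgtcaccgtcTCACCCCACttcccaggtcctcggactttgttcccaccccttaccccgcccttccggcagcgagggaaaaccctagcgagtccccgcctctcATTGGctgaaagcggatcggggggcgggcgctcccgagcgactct
Cyp51, chr5:4104698-4104947, minus strand: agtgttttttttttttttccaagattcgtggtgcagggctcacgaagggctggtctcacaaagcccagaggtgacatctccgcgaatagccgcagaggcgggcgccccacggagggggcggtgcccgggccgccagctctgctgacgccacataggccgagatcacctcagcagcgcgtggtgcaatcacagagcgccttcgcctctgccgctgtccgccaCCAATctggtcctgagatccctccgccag
Msmo1, chr8:64733579-64733828, minus strand: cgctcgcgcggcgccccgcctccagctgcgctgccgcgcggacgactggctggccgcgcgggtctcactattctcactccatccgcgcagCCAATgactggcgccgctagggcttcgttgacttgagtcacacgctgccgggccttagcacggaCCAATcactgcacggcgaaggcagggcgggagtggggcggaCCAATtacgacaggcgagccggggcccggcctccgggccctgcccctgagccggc
Nsdhl, chrX:72918271-72918520, plus strand: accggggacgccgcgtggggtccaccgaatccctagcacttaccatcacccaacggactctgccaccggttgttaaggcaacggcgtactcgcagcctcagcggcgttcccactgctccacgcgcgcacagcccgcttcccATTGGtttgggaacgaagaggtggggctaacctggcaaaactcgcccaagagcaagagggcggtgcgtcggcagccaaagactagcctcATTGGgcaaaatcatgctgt
Hsd17b7, chr1:169969206-169969455, minus strand: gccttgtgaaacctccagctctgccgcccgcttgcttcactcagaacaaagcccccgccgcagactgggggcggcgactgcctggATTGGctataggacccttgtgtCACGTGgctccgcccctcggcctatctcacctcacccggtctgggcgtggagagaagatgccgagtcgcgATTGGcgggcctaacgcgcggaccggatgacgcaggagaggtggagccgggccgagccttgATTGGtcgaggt
Insig1, chr5:28071162-28071411, plus strand: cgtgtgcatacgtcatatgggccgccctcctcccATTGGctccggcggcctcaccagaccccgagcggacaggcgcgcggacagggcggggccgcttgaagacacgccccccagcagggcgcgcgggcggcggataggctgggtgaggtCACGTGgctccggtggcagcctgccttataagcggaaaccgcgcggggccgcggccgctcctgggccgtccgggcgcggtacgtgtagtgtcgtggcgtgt

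Each of the 6 windows held at least 1 NF-Y box. Msmo1 had 3 on its own strand, at -160 to -156, -96 to -92 and -55 to -51 from the start, and Cyp51 had a single one at -29 to -25. Hmgcs1 alone of the 23 members held the sterol regulatory element core, at -137 to -129, a string found in 1.24% of the 32851 promoters in the table and in 1.48% of the 11926 tested genes that the table covers. The E box stood in the windows of Hsd17b7, at -143 to -138, and Insig1, at -101 to -96. Over the whole table window, which runs on to 50 bases past the start, 19 of the 23 members (82.6%) held an NF-Y box in at least 1 promoter, against 41.6% of the tested genes covered. Those 19 include all 13 enzymes of sterol synthesis with a promoter in the table, whether their expression rose or not. In Fasn, a pair of NF-Y boxes on opposite strands overlaps. The E box stood in 5 of 23 members (21.7%), which are Dhcr7, Hsd17b7, Insig1, Sc5d and Scap, against 10.9% of the tested genes covered. A match is only a run of letters. The core was searched with 1 open position, and its absence elsewhere says nothing about SREBP binding.

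**Figure D1:**
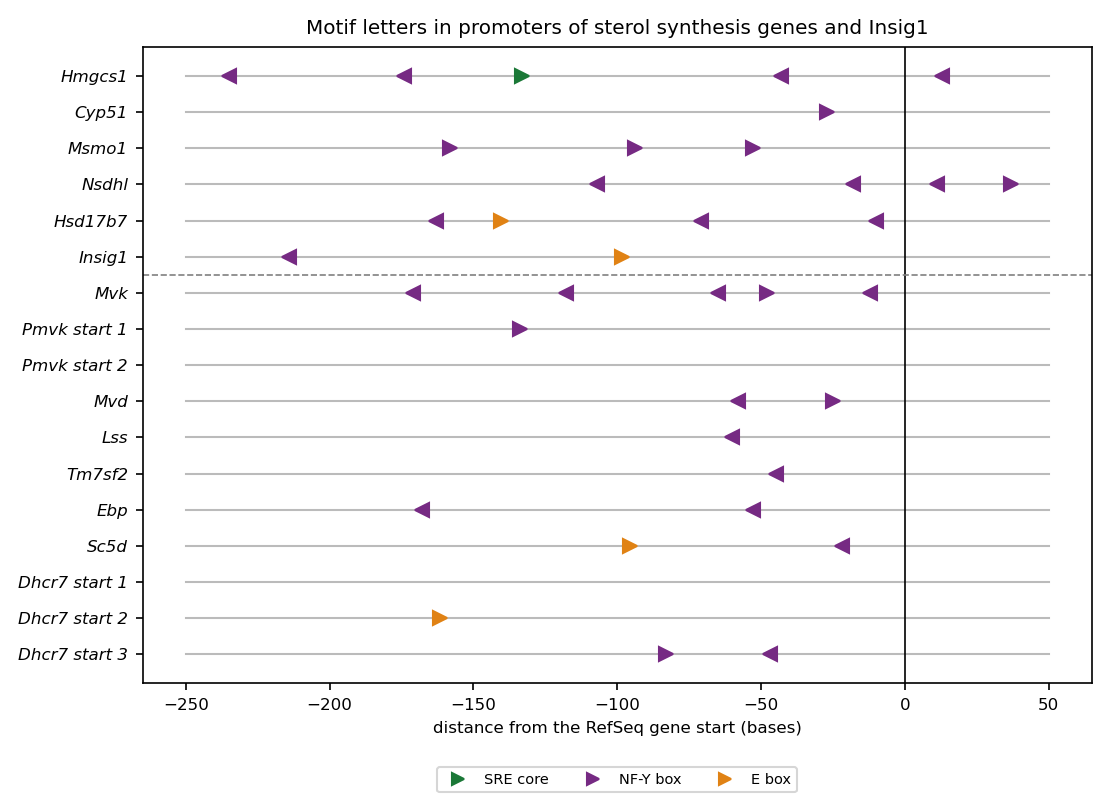
Matches to the 3 motif strings in promoters of the sterol synthesis enzymes and Insig1, by distance from the RefSeq gene start in bases, with arrowheads pointing along the strand of the match (the E box reads alike on both). Genes above the dashed line rose after irradiation, and NF-Y boxes appear on both sides of that line, while the only sterol regulatory element core lies in Hmgcs1.

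Zc3hc1 differed by -2.50 (log2, KO minus WT) in untreated and by -2.28 in irradiated cells, and the p53 target Cdkn1a rose by 1.31 in KO and 1.26 in WT cells. Kit lay between 9.97 and 11.32 on all arrays. Its means were 10.59 in irradiated and 11.02 in untreated KO cells, and 10.46 in irradiated and 11.05 in untreated WT cells. The average irradiation difference of Kit, -0.51 (SE 0.21), did not pass the test (limma adjusted p = 0.128). Ly6a, which encodes SCA1, was not measured by a probe set of its own. Of 6 genes listed for lineage antigens, 4 lay under the brightness limit and Ptprc and Itgam did not. Ptprc encodes CD45, which LSK cells carry too, so its level does not tell lineage-positive cells apart. Of 5 measured erythroid markers (8 listed), 4 fell after irradiation in KO cells and 1 in WT cells at the adjusted threshold. Of all genes, 3.2% were called lower in KO and 2.7% in WT cells. Those 4, Car1, Epor, Rhag and Ermap, also fell on average. Their irradiated arrays lay below all untreated ones in both genotypes. Summed log2 levels of all 5 markers were 27.8 to 30.5 in irradiated KO and 35.0 to 37.1 in untreated KO arrays. They were 28.3 to 29.5 in irradiated WT and 32.0 to 34.5 in untreated WT arrays. All 5 erythroid markers passed the brightness limit in at least 3 arrays, but single irradiated arrays lay under it. These were Car1 (5.26) and Ermap (5.25) in irradiated KO array 1 and Klf1 (5.27) in irradiated WT array 3. Summed levels of the mast cell list were 39.6 to 41.3 in irradiated KO and 37.7 to 38.8 in untreated KO arrays, with 0 of 5 genes past the test, and overlapped in WT cells. The part of either list in the results below was not tested, and in bulk RNA fewer cells of a type cannot be told from less RNA per cell. Summed granulocyte markers were 34.8 to 49.1 in untreated WT and 37.3 to 46.4 in irradiated WT arrays. The KO sums were 35.8 to 42.3 untreated and 36.4 to 43.0 irradiated. Among them Ngp increased with array number, at 5.83, 8.21 and 9.39 in untreated WT and 6.94, 8.19 and 9.20 in irradiated WT cells. Ccr2 read 7.63 and 7.61 on array 1 of irradiated and untreated KO cells, and 4.96 to 6.39 on the other KO arrays. The part of these differences in the WT pairing was not tested. Irradiated KO array 3 and untreated KO array 2 stood apart by some B-lineage genes. Igll1, part of the pre-B cell receptor, read 6.13, 6.64 and 9.96 in irradiated KO and 6.79, 9.56 and 6.32 in untreated KO cells. Cd79a, Cd79b and Pax5 were also highest on these arrays within their KO groups. Vpreb1 was not, with 5.53, 5.31 and 5.42 in irradiated KO and 5.47, 5.39 and 5.53 in untreated KO cells. Ms4a1 lay under the brightness limit. Results that rest on these arrays are given with and without them.

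Part of the sterol synthesis pathway rose after irradiation. Averaged over both genotypes, 8 of the 29 members rose and 1 fell at a limma adjusted p of 0.05, where 16.5% of all 15348 genes tested were called, 6.9% of them higher and 9.6% lower. The 8 are Cyp51, Hsd17b7, Hmgcs1, Fdft1, Msmo1, Insig1, Sqle and Nsdhl, with average log2 changes of 0.74 to 0.34, and the gene that fell is the elongase Elovl6. The median average change was 0.25 for the mevalonate genes, 0.34 from squalene to cholesterol, 0.20 for control and transport and -0.15 for the fatty acid genes, against 0.00 for all genes tested. Without irradiated KO array 3 and untreated KO array 2, 6 members were called, all of them higher, and Nsdhl (0.27, limma adjusted p = 0.0719), Sqle (0.32, adjusted p = 0.156) and Elovl6 (-0.31, adjusted p = 0.0939) were not.

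**Figure D2:**
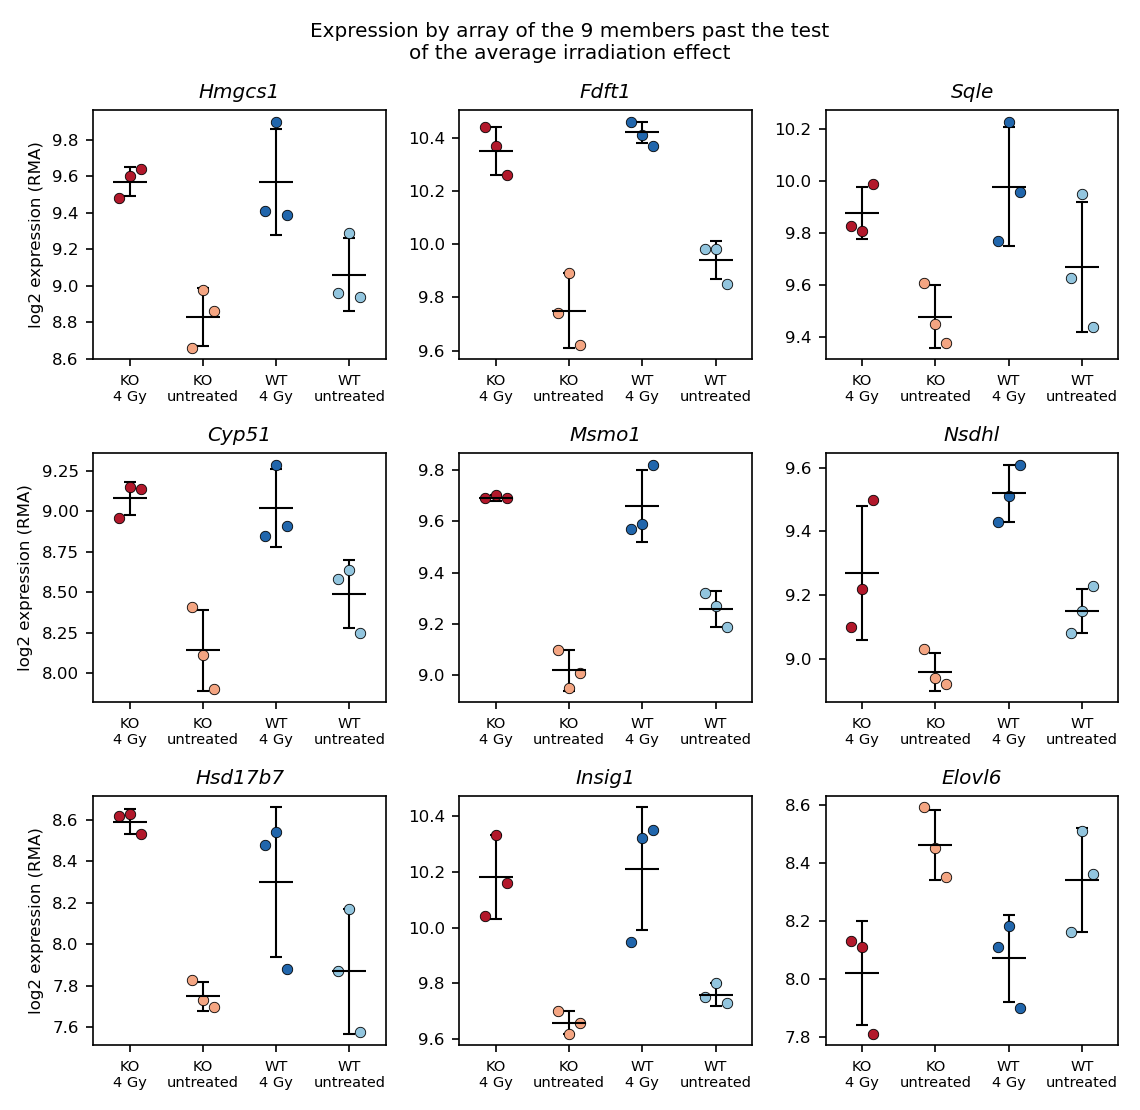
Log2 expression (RMA) of the 9 members past the test of the average irradiation effect, with 1 point per array, in array order 1 to 3, and bars for the group mean ± SD (n = 3). For Hmgcs1, Fdft1, Cyp51, Msmo1, Nsdhl and Insig1 the irradiated arrays of each genotype lie above all untreated arrays of that genotype, and for Elovl6 the irradiated KO arrays lie below the untreated KO arrays.

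In KO cells 6 members rose and 0 fell, where 5.94% of all genes were called, 2.74% higher and 3.2% lower. Irradiated and untreated KO arrays did not overlap for 15 members, 13 of them higher after irradiation and 2 lower, against 23.4% of all genes, 10.2% higher and 13.2% lower. In WT cells 2 members rose and 0 fell, where 4.83% of all genes were called, 2.13% higher and 2.7% lower. Irradiated WT arrays lay above all untreated WT arrays for 7 members and below them for 0, where 24.8% of all genes had such a gap, 11.4% upward and 13.3% downward. Both genotypes showed the gap upward for 6 members (Hmgcs1, Fdft1, Cyp51, Msmo1, Nsdhl and Insig1), a pattern that 4.71% of all genes had. Leaving out irradiated KO array 2 reduced the count in KO cells to 3. Leaving out irradiated KO array 3 with untreated KO array 2 reduced it to 2, which are Fdft1 and Msmo1. The KO changes without both arrays were 0.78 for Hmgcs1, 0.87 for Hsd17b7 and 0.50 for Insig1 (limma adjusted p = 0.1, 0.127 and 0.219). In WT cells the count was 0 without irradiated WT array 2 or 3, or untreated WT array 2 or 3. It was 1 without array 1 of either WT group, any untreated KO array or irradiated KO array 2 or 3. KO arrays enter WT tests through the spread, which is estimated over all groups.

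The replicate numbers of WT samples were taken to pair their arrays, because same-numbered arrays deviated from their group means together. With the number as a block within genotype, 3 members were called in WT cells: Hmgcs1 (adjusted p = 0.0221), Fdft1 (adjusted p = 0.0256) and Hsd17b7 (adjusted p = 0.0433). Msmo1 then had an adjusted p of 0.0656, and 3.32% of all genes were called higher in that limma fit. The fit blocked all 12 arrays, so KO arrays, whose numbers do not pair them, also entered its spread. Irradiated minus untreated differences were positive in all 3 WT pairs for 12 members and negative in all 3 for 4, where 24.3% of all genes were positive and 25.7% negative in every pair. The pairs of Fdft1 differed by 0.49, 0.43 and 0.52, and those of Nsdhl by 0.34, 0.36 and 0.38. Those of Msmo1 were less even, at 0.25, 0.32 and 0.63.

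**Figure D3:**
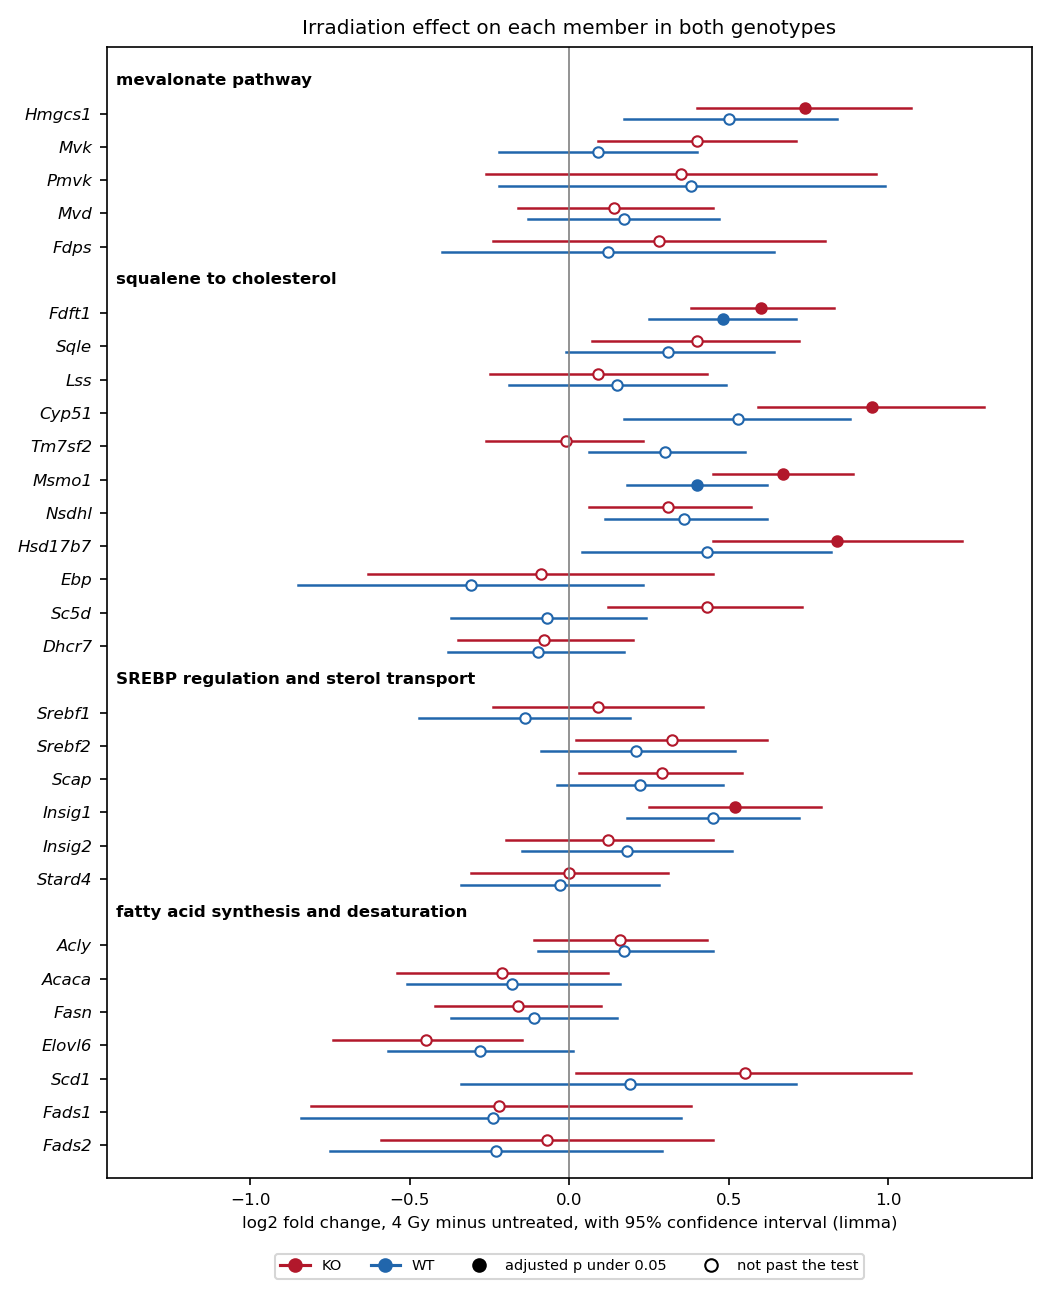
Log2 fold change of each of the 29 members, irradiated minus untreated, in KO (red) and WT cells (blue), with 95% confidence intervals from limma and filled points at an adjusted p under 0.05. Filled points are found among sterol genes in both genotypes, and the fatty acid genes at the bottom have none.

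Among the mevalonate genes, Hmgcs1, the synthase that condenses acetyl-CoA with acetoacetyl-CoA, was the one past the test. Its log2 levels were 9.48, 9.60 and 9.64 in irradiated KO and 8.66, 8.98 and 8.86 in untreated KO cells. They were 9.41, 9.90 and 9.39 in irradiated WT and 8.96, 9.29 and 8.94 in untreated WT cells. The groups were apart in both genotypes, and the second array was the highest of both WT groups. Hmgcs1 rose by 0.74 in KO cells (SE 0.16, 1.67-fold, limma adjusted p = 0.0158) and differed by 0.50 in WT cells (SE 0.16, adjusted p = 0.0883), with an average of 0.62 (SE 0.11, adjusted p = 0.00239). The KO call was lost without untreated KO array 1 (adjusted p = 0.0707), irradiated KO array 2 (adjusted p = 0.0585) or irradiated KO array 3 (adjusted p = 0.0575).

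The next enzymes had smaller or less even differences. Mvk, mevalonate kinase, had 7.53, 7.80 and 7.41 in irradiated KO and 7.07, 7.14 and 7.32 in untreated KO cells, groups that did not overlap. Its difference there was 0.40 (SE 0.14, limma adjusted p = 0.134), and in WT cells it was 0.09 with overlapping groups. Pmvk, phosphomevalonate kinase, averaged 0.37 higher with a 95% interval of -0.06 to 0.80. With the replicate block within genotype, which includes KO arrays that do not pair, Pmvk passed on average (limma adjusted p = 0.046). Its irradiated WT arrays read 7.95, 9.24 and 8.35, so that array 2 alone spread the group. Mvd, the decarboxylase that makes the isoprene unit, averaged 0.16 higher (interval -0.06 to 0.37). Fdps, farnesyl diphosphate synthase, averaged 0.20 higher (interval -0.17 to 0.57), with 9.74, 10.45 and 9.28 in irradiated WT cells. All 5 mevalonate genes had positive differences in both genotypes.

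Fdft1, squalene synthase, commits farnesyl diphosphate to sterols. Its log2 levels were 10.44, 10.37 and 10.26 in irradiated KO and 9.74, 9.89 and 9.62 in untreated KO cells. They were 10.46, 10.41 and 10.37 in irradiated WT and 9.98, 9.98 and 9.85 in untreated WT cells. All 6 irradiated arrays lay above all 6 untreated ones. Fdft1 rose by 0.60 in KO cells (SE 0.10, 1.52-fold, limma adjusted p = 0.00487) and by 0.48 in WT cells (SE 0.10, 1.40-fold, adjusted p = 0.0204). The KO call held in each of the 22 alternatives run. The WT call was lost without any of irradiated WT arrays 1, 2 and 3 (adjusted p = 0.0573, 0.0512 and 0.0568) or untreated WT arrays 2 and 3 (adjusted p = 0.0616 and 0.0954).

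Sqle, squalene epoxidase, oxidises squalene before ring closure. It read 9.83, 9.81 and 9.99 in irradiated KO and 9.61, 9.45 and 9.38 in untreated KO cells. The WT values were 9.77, 10.23 and 9.96 in irradiated and 9.63, 9.95 and 9.44 in untreated cells, with overlap between the groups. Sqle rose by 0.36 on average (SE 0.11, limma adjusted p = 0.038), with 0.40 in KO cells (adjusted p = 0.152) and 0.31 in WT cells (adjusted p = 0.274). The average call was lost without any of untreated KO arrays 2 and 3, irradiated KO arrays 2 and 3, untreated WT arrays 1 and 3 or irradiated WT arrays 2 and 3, with adjusted p-values of 0.0593 to 0.0934. Lss, the cyclase that makes lanosterol, averaged 0.12 higher (95% interval -0.12 to 0.36) and its groups overlapped in both genotypes.

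Enzymes that strip methyl groups from lanosterol, Cyp51, Msmo1, Nsdhl and Hsd17b7, all rose on average, a grouping made after their values were seen. Cyp51, lanosterol demethylase, had 8.96, 9.15 and 9.14 in irradiated KO and 8.41, 8.11 and 7.90 in untreated KO cells. It had 8.85, 9.29 and 8.91 in irradiated WT and 8.58, 8.64 and 8.25 in untreated WT cells. The groups were apart in both genotypes, and untreated KO array 3 was the lowest of all 12. Cyp51 rose by 0.95 in KO cells (SE 0.16, 1.93-fold, limma adjusted p = 0.00479), the largest KO change of the 29 members. In WT cells its difference was 0.53 (SE 0.16, 1.44-fold, adjusted p = 0.0882). With both arrays rich in B-lineage genes left out, the KO change of Cyp51 was 0.91 with an adjusted p of 0.0752.

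Msmo1, the methylsterol monooxygenase, starts the removal of a pair of methyl groups from the sterol's first ring. Its levels were 9.69, 9.70 and 9.69 in irradiated KO and 9.10, 8.95 and 9.01 in untreated KO cells. They were 9.57, 9.59 and 9.82 in irradiated WT and 9.32, 9.27 and 9.19 in untreated WT cells. The 3 irradiated KO arrays were within 0.01 of each other, and all irradiated arrays lay above all untreated ones. Msmo1 rose by 0.67 in KO cells (SE 0.10, 1.59-fold, limma adjusted p = 0.00237) and by 0.40 in WT cells (SE 0.10, 1.32-fold, adjusted p = 0.0424). The KO call held in each of the 22 alternatives run. The WT call was lost when any array but irradiated KO array 1 was left out, with adjusted p-values of 0.0533 to 0.165.

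Nsdhl, the dehydrogenase of the same demethylation, had 9.10, 9.22 and 9.50 in irradiated KO and 9.03, 8.94 and 8.92 in untreated KO cells. Its WT levels were 9.43, 9.51 and 9.61 in irradiated and 9.08, 9.15 and 9.23 in untreated cells. Irradiated KO array 3 was the highest of its group, and the groups did not overlap in either genotype. Nsdhl rose by 0.34 on average (SE 0.08, limma adjusted p = 0.0151), with 0.31 in KO cells (adjusted p = 0.152) and 0.36 in WT cells (adjusted p = 0.102).

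Hsd17b7, the ketoreductase of that demethylation, had 8.62, 8.63 and 8.53 in irradiated KO and 7.83, 7.73 and 7.70 in untreated KO cells. It had 8.48, 8.54 and 7.88 in irradiated WT and 7.87, 8.17 and 7.58 in untreated WT cells. The KO groups were far apart, while irradiated WT array 3 fell within the untreated WT range. Hsd17b7 rose by 0.84 in KO cells (SE 0.18, 1.79-fold, limma adjusted p = 0.0161) and differed by 0.43 in WT cells (SE 0.18, adjusted p = 0.205 without the block of replicates). Its average was 0.64 (SE 0.13, adjusted p = 0.00477). Leaving out untreated KO array 2, untreated KO array 3 or the second irradiated KO array gave KO changes of 0.83, 0.82 and 0.82 with adjusted p-values of 0.066, 0.0526 and 0.0604.

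The remaining sterol enzymes did not pass the test in any comparison. Tm7sf2, a sterol reductase that follows Cyp51, had 7.28, 7.27 and 7.17 in irradiated WT and 6.86, 7.12 and 6.84 in untreated WT cells, groups that did not overlap. It differed by -0.01 in KO cells and by 0.30 in WT cells (SE 0.11, limma adjusted p = 0.156). Sc5d, the desaturase that works near the end of the pathway, showed the opposite arrangement. Its KO levels were 9.58, 9.63 and 9.34 in irradiated and 9.21, 9.01 and 9.04 in untreated cells, a difference of 0.43 (SE 0.14, adjusted p = 0.101). In WT cells Sc5d differed by -0.07 with overlapping groups. Ebp, the sterol isomerase, averaged -0.20 (95% interval -0.58 to 0.18). Dhcr7, which catalyses the last reduction to cholesterol, averaged -0.09 (interval -0.28 to 0.10). Its KO levels were 8.39, 8.36 and 8.32 in irradiated and 8.49, 8.39 and 8.41 in untreated cells, a narrow gap in which irradiated array 1 and untreated array 2 differ only past the second decimal.

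Of the control genes, Insig1 rose. Insig1 retains SCAP in the endoplasmic reticulum and is itself a known SREBP target. Its levels were 10.04, 10.33 and 10.16 in irradiated KO and 9.70, 9.62 and 9.66 in untreated KO cells. They were 9.95, 10.32 and 10.35 in irradiated WT and 9.75, 9.80 and 9.73 in untreated WT cells. All 6 irradiated arrays were above all 6 untreated ones, and the untreated groups were tight (SD 0.04 each, n = 3). Insig1 rose by 0.52 in KO cells (SE 0.12, 1.43-fold, limma adjusted p = 0.0292) and differed by 0.45 in WT cells (SE 0.12, adjusted p = 0.0601). Its average was 0.48 (SE 0.09, adjusted p = 0.00275). The KO call was lost without any KO array but irradiated array 1, with adjusted p-values of 0.0746 to 0.12. It was also lost with only the KO arrays fitted (adjusted p = 0.0572) and without both B-lineage-rich KO arrays (adjusted p = 0.219). The WT difference passed without irradiated WT array 1 (0.58, adjusted p = 0.0184) or irradiated KO array 1 (0.45, adjusted p = 0.0472). It also passed with a replicate block over all arrays, the unpaired KO arrays included (adjusted p = 0.0476), and after cyclic loess (0.50, adjusted p = 0.0436). Insig2, its relative, averaged 0.15 (95% interval -0.08 to 0.38) with overlapping groups in both genotypes.

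The SREBP genes and their escort did not pass. Srebf2 had 10.18, 10.40 and 10.18 in irradiated KO and 10.12, 9.72 and 9.95 in untreated KO cells, a difference of 0.32 (SE 0.14, limma adjusted p = 0.215). It averaged 0.27 over both genotypes (SE 0.10, adjusted p = 0.0826), and without irradiated WT array 2 that average passed at 0.33 (adjusted p = 0.0364). Srebf1 averaged -0.03 (95% interval -0.26 to 0.21). Scap had 9.84, 10.06 and 9.97 in irradiated KO and 9.78, 9.56 and 9.66 in untreated KO cells. The KO groups did not overlap and the average difference of Scap was 0.25 (SE 0.08, adjusted p = 0.0583), or 0.28 without irradiated KO array 1 (adjusted p = 0.0382). A second, dimmer Scap probe set near the brightness limit differed by 0.10 in KO and 0.22 in WT cells, against 0.29 and 0.22 for the brighter one. Stard4, a carrier of cholesterol within the cell, averaged -0.02 (interval -0.23 to 0.20).

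Among the 7 fatty acid genes 1 fell and 0 rose at the adjusted threshold on average, where 9.6% of all genes fell and 6.9% rose. Acly, which supplies cytosolic acetyl-CoA from citrate to both pathways, averaged 0.17 (95% interval -0.03 to 0.36). Acaca, acetyl-CoA carboxylase, averaged -0.19 (interval -0.43 to 0.04), and Fasn, fatty acid synthase, -0.13 (interval -0.32 to 0.05). Elovl6, which lengthens palmitate, was the member that fell. It read 8.13, 8.11 and 7.81 in irradiated KO and 8.59, 8.45 and 8.35 in untreated KO cells. The WT levels of Elovl6 were 8.11, 8.18 and 7.90 in irradiated and 8.16, 8.51 and 8.36 in untreated cells, and only the WT groups overlapped. Elovl6 fell by 0.36 on average (SE 0.09, limma adjusted p = 0.0206), with differences of -0.45 in KO (adjusted p = 0.074) and -0.28 in WT cells (adjusted p = 0.273). The average call was lost without untreated KO array 1 (adjusted p = 0.0542), untreated WT array 2 (adjusted p = 0.0565) or irradiated WT array 3 (adjusted p = 0.0532).

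The desaturases were more scattered. Scd1, which makes monounsaturated fatty acids, lay close to the brightness limit, with 5.92, 6.56 and 5.68 in irradiated KO and 5.39, 5.58 and 5.55 in untreated KO cells, groups that did not overlap. Its difference there was 0.55 (SE 0.24, limma adjusted p = 0.23) and in WT cells 0.19 (SE 0.24). Fads1 and Fads2 encode desaturases of polyunsaturated fatty acids and lie side by side in the genome per RefSeq. Fads1 had 11.14, 11.03 and 10.40 in irradiated KO and 11.26, 10.86 and 11.09 in untreated KO cells. In WT cells Fads1 had 11.69, 10.58 and 10.82 in irradiated and 11.62, 11.10 and 11.09 in untreated arrays. Fads2 had 12.03, 11.10 and 11.18 in irradiated WT and 11.84, 11.64 and 11.52 in untreated WT cells. For both genes array 1 was the highest of each WT group, as it was for Kit, and the groups overlapped. Irradiation gave average differences of -0.23 for Fads1 (95% interval -0.65 to 0.19) and -0.15 for Fads2 (interval -0.52 to 0.22).

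Larger KO than WT changes were not established by a test. The difference of the irradiation effects, KO minus WT, passed the limma test for 0 of the 29 members and for 0 of all genes (0% called), and an unadjusted p under 0.05 was found for 1 member and 1.53% of all genes. That member is Sc5d, at 0.50 (SE 0.20, unadjusted p = 0.0278, adjusted p = 1). For the 9 members called on average, the 95% intervals of the difference all held 0 and together ran from -0.58 to 0.96. The largest of the 9 differences was 0.42 for Cyp51 (interval -0.08 to 0.92), followed by 0.41 for Hsd17b7 (interval -0.14 to 0.96). Of the 8 that rose on average, 7 had the larger estimate in KO cells and Nsdhl had the larger one in WT cells. The difference was positive for 47.7% of all genes. Signs were positive in both genotypes for 18 members, negative in both for 8 and opposite for 3. Of all genes, 45.7% had a positive irradiation change in KO and 50.7% in WT cells.

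Loss of NIPA itself gave no call among the members. In each of the 3 genotype contrasts, without irradiation, after it and averaged, 0 of 29 passed the limma test, and 0.00652% of all genes did, a share that is Zc3hc1 alone. In untreated cells 23 of the 29 members had lower means in KO than in WT cells, where 51.6% of all genes had higher ones. The median difference of the members was -0.18, against 0.00 for all genes. Untreated KO arrays lay below all untreated WT arrays for 4 members (Msmo1, Nsdhl, Insig1 and Stard4) and above them for 0, where 7.96% of all genes had a gap, 3.55% lower and 4.4% higher in KO cells. Msmo1 had the only unadjusted p under 0.05, where 2.15% of all genes had one, at -0.24 (SE 0.10, limma unadjusted p = 0.035, adjusted p = 1). Stard4 read 7.83, 7.78 and 7.95 in untreated KO and 8.03, 8.11 and 8.08 in untreated WT cells, a difference of -0.23 (SE 0.14).

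After irradiation the median genotype difference of the members was -0.05, against -0.01 for all genes, and 0 members had an unadjusted p under 0.05, where 3.07% of all genes did. Irradiated KO arrays lay below all irradiated WT arrays for 2 members, Lss and Tm7sf2, and above them for 0, where 6.4% of all genes had a gap, 3.83% lower and 2.57% higher in KO cells. The largest differences there were 0.29 each for Hsd17b7 and Sc5d and -0.24 for Nsdhl, each with an interval that held 0. Averaged over both treatments, Nsdhl differed by -0.22 (KO minus WT, SE 0.08, unadjusted p = 0.0217, adjusted p = 1 in limma), the only member with an unadjusted p under 0.05, where 4.14% of all genes had one. The genotype and irradiation contrasts share arrays, so that a low untreated KO group enters both a negative genotype difference and a larger irradiation change in KO cells.

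In 6 other lists of lipid metabolism, written by function, the genes past the test lay in both directions. List medians of the average change lay between -0.11 and 0.14. Of all genes tested, 6.9% were called higher and 9.6% lower on average. Averaged over both genotypes, 0 of 8 genes of SREBP processing and sterol-regulated degradation rose and 2 fell. These were Erlin1, a membrane protein of the endoplasmic reticulum (-0.59, limma adjusted p = 0.0172), and Mbtps2, a protease that cleaves SREBPs (-0.50, adjusted p = 0.0387). Of 9 genes that use isoprenoids, 0 rose and 2 fell, Rabggta, a subunit of the Rab prenyl transferase (-0.46, adjusted p = 0.00987), and Coq2 of ubiquinone synthesis (-0.42, adjusted p = 0.0165). Among 12 genes of sterol export, esterification and transport, 2 rose and 1 fell. The lysosomal lipase Lipa had 9.76, 10.22 and 10.85 in irradiated KO and 9.19, 9.45 and 9.21 in untreated KO cells, and rose by 0.79 on average. Npc2, which carries cholesterol in lysosomes, rose by 0.29, and the lipoprotein receptor Vldlr fell by 1.36 (adjusted p = 0.00375).

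Of 14 genes that supply, activate or lengthen fatty acids, 3 rose and 2 fell on average, where 6.9% of all genes rose and 9.6% fell. Me1, malic enzyme, which makes NADPH, had 8.68, 9.31 and 9.35 in irradiated KO and 7.68, 8.49 and 8.12 in untreated KO cells. Me1 had 8.77, 9.98 and 9.49 in irradiated WT and 8.28, 8.73 and 7.82 in untreated WT cells, and rose by 1.08 on average (SE 0.23, limma adjusted p = 0.00662). Acss2, which makes acetyl-CoA from acetate, rose by 0.94 (SE 0.21, adjusted p = 0.00878). Acss2 read 7.43, 8.28 and 8.25 in irradiated KO and 6.83, 7.41 and 7.11 in untreated KO cells. The dehydratase Hacd2 rose by 0.73 (adjusted p = 0.00412), while its relative Hacd3 (-0.37, adjusted p = 0.0286) and the acyl-CoA synthetase Acsl5 (-0.52, adjusted p = 0.0163) fell.

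Of 17 oxidation genes 1 rose and 1 fell on average, where 6.9% of all genes rose and 9.6% fell. Cpt1c, a brain-type carnitine palmitoyltransferase described as a p53 target, had 9.38, 9.58 and 8.70 in irradiated KO and 7.03, 6.20 and 6.91 in untreated KO cells. Its WT levels were 9.92, 8.94 and 9.33 in irradiated and 6.71, 6.25 and 6.73 in untreated cells. Cpt1c rose by 2.67 on average (SE 0.21, limma adjusted p = 6.1e-06), more than any member, and the hydroxyacyl-CoA dehydrogenase Hadh fell by 0.42 (adjusted p = 0.0242). Among 11 glycerolipid genes Lpin1, a phosphatidate phosphatase also described as a p53 target, rose by 1.21 (SE 0.12, adjusted p = 4.8e-05). The acyltransferases Agpat2 (-0.68, adjusted p = 0.0109) and Gpam (-0.48, adjusted p = 0.0153) fell. The average calls of Mbtps2, Npc2, Hacd3 and Hadh were lost, with adjusted p-values up to 0.0946, 0.0882, 0.0746 and 0.0654, when single arrays were left out. Mbtps2 was lost without any but untreated KO array 3, irradiated KO array 1, untreated WT array 3 and irradiated WT array 2. Npc2 was lost without any but untreated KO array 1 and irradiated KO arrays 2 and 3. Hacd3 and Hadh were both lost without untreated KO array 1, irradiated KO arrays 2 and 3, untreated WT arrays 2 and 3 or irradiated WT array 3, and Hacd3 also without irradiated WT array 1. Lipa was lost without untreated WT array 3 (adjusted p = 0.0574). Without both B-lineage-rich KO arrays these 5 calls and those of Acsl5, Coq2 and Gpam were lost (adjusted p = 0.0573 to 0.115).

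**Figure D4:**
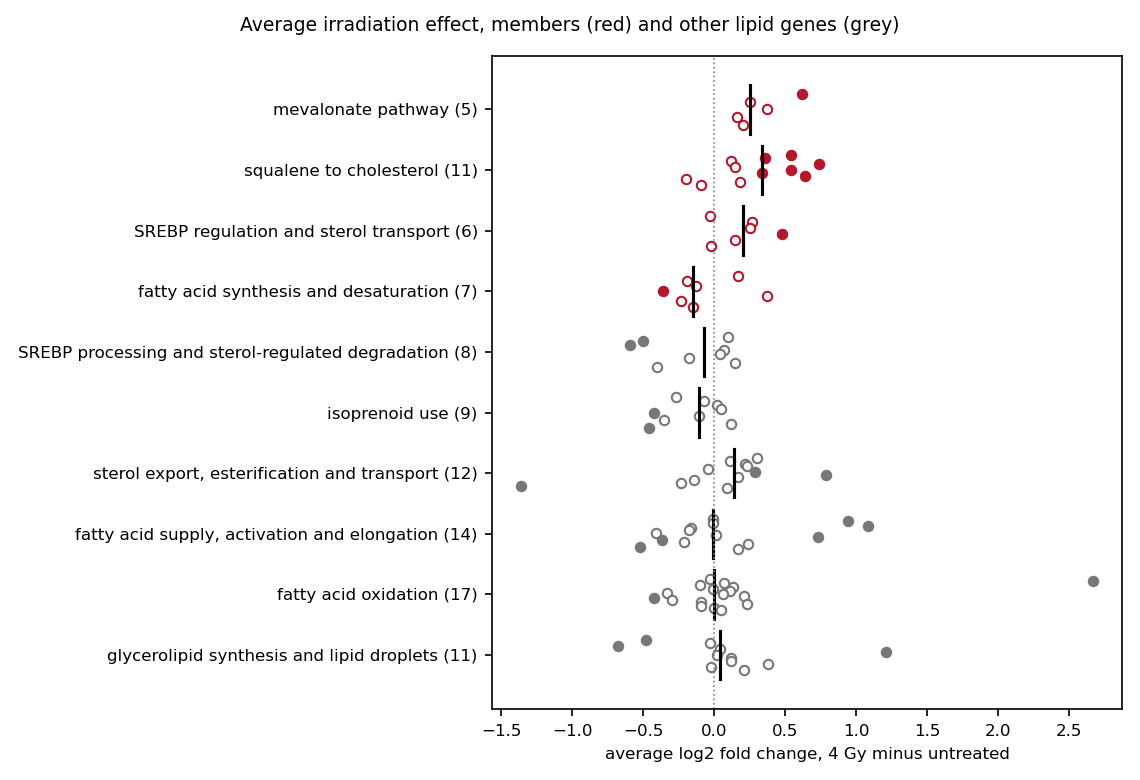
Average log2 fold change after irradiation, 4 Gy minus untreated, of each tested gene in the 4 member groups (red) and 6 other lipid lists (grey), with the number tested in brackets, filled points at an adjusted p under 0.05 and a black bar at the median. The group from squalene to cholesterol has the highest median, 0.34, while Cpt1c, Lpin1 and Me1 are the far points to the right in lists with medians near 0.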

How the data were processed

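Expression was measured on 12 Affymetrix arrays with biotin-labelled, amplified cDNA. The deposited values are log2 expression per probe set, made by the authors with RMA in the R package oligo, per the submitters' processing notes, with versions and build not given in the sources used here. RMA normalizes arrays by quantiles, so that differences are relative to the other genes of an array. Array medians lay between 5.74 and 5.85 on this log2 scale, and the number of arrays limits the precision.

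Of 41345 probe sets, 23521 had exactly 1 symbol in the platform annotation, 1814 had several and 16010 had none, and 23328 matched the RefSeq gene table. The brightest probe set of a gene was used. Genes above the 40th percentile of all values (5.29) in at least 3 arrays were tested, which kept 15348 and left out 6832. The test was that of limma (version 3.58.1, run in R 4.3.3; lmFit, eBayes, two-sided), applied to all arrays in a single fit of 4 group means, with Benjamini-Hochberg adjustment over all genes tested and a threshold of 0.05. The fit was also tested on simulated data, but no outcome is given here and no result above rests on it. An exact permutation test of 3 against 3 arrays cannot go below p = 0.1 and was not used.

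Groups and replicate numbers came from the sample titles. Same-numbered WT arrays deviated together (correlations over genes of 0.491, 0.476 and 0.42), so these numbers count as pairing the WT arrays. Untreated KO and untreated WT arrays also passed this check (0.161, 0.233 and 0.102), and the block gave 0 calls there too. Untreated KO and irradiated WT arrays passed it as well (0.187, 0.316 and 0.152), though they differ in genotype and treatment. The check alone therefore does not show that WT pools were split. KO arrays did not pair (0.474, -0.239 and -0.122). The rule for named genes gives every member, and full values for those past the test or with groups that do not overlap after irradiation. It planned up to 4 passing genes of each other list, but all genes of these lists that passed on average are named. Members and lists were chosen with earlier results of these data known. Some genes of these pathways are not reported here. The alternatives tried were other brightness limits, other scalings, another prior, the mean of all probe sets, only the arrays compared, replicate blocks, leaving out each array and, chosen after seeing the data, leaving out both KO arrays rich in B-lineage genes.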

Additional observations from a re-analysis of the deposited data

How the results depend on the processing

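Of 365 alternative values for called genes, 314 kept their side of the threshold, 51 lost it and 0 changed direction. Of 148 alternative counts of called members, 130 stayed within 1.5 times the reported count and 18 did not. The 130 include counts of the genotype contrasts and of the difference of effects, which were 0 throughout. All 18 that moved were counts of irradiation effects, so the share of 130 overstates how stable those are. In KO cells the count of 6 became 2 without both arrays rich in B-lineage genes and 3 to 6 when single arrays were left out. In WT cells the count of 2 became 1 after subtracting array medians, with only the WT arrays fitted or without both B-lineage-rich KO arrays, 5 after cyclic loess, and 0 to 3 when single arrays were left out. A replicate block over all arrays gave 4 in WT cells, and a block within genotype gave 3. These blocks gave 7 in KO cells, whose numbers do not pair the arrays, and 9 and 10 on average. The average count was 6 to 11 over all alternatives and 7 to 10 when single arrays were left out. The genotype contrasts and the difference of the irradiation effects had 0 calls wherever they could be fitted. Calls of the average that held in each of 21 alternatives were those of Cyp51, Fdft1, Hmgcs1, Hsd17b7, Insig1 and Msmo1. Cyclic loess also brought the averages of Mvk (0.31, limma adjusted p = 0.0397) and Scap (0.29, adjusted p = 0.0385) past the threshold. In the other lipid lists 9 of the 17 named average calls held in each of 21 alternatives and 0 changed direction. Fits of only the arrays compared gave no average and no difference of effects, and a block within genotype gave no genotype contrast. When 1 array is left out, its group holds 2 and shares the spread of the others. With 3 arrays a group, the smallest changes of members that passed were 0.52 in KO cells (Insig1) and 0.40 in WT cells (Msmo1), while Scd1 in KO (0.55, SE 0.24) and Cyp51 in WT cells (0.53, SE 0.16) did not pass. Fewer arrays were fitted where arrays were left out, and the cause of the other changes was not tested.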

Other observations

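Abca1, which exports cholesterol to lipoproteins, was the gene of the other lipid lists with the smallest unadjusted p for genotype. It read 8.24, 8.14 and 8.19 in irradiated KO and 7.81, 7.85 and 7.82 in untreated KO cells, against 7.84, 7.31 and 7.64 in irradiated WT and 7.59, 7.22 and 7.23 in untreated WT cells. KO arrays lay above WT arrays of the same treatment in both comparisons. The average genotype difference of Abca1 was 0.54 (SE 0.10, limma unadjusted p = 1.5e-04, adjusted p = 0.352), so it did not pass the test. It was named after its values were seen.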
